A study of Homo sapiens and Mus musculus with 6 samples.

Results

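The core pluripotency transcription factors examined here are the 10 genes Pou5f1, Sox2, Nanog, Klf2, Klf4, Klf5, Esrrb, Tfcp2l1, Zfp42 and Prdm14, and the data are the significant contacts of their promoters in mouse embryonic stem cells (mESCs). A contact, or call, was kept when one of these symbols named the bait or the other end, which gave 78 of the 101841 mESC calls and covered 9 of the 10 genes. Tfcp2l1 was listed under its older symbol Tcfcp2l1, and without that match 75 calls and 8 genes remained. Zfp42 had no call. Each gene with a call was named on 1 fragment only. That fragment held 1 of 7 annotated starts of Pou5f1, 1 of 5 of Esrrb and 3 of 4 of Klf4, and every start of the others. Over all protein-coding symbols of the mm9 annotation, 63.5% were listed with a call.

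The series used promoter Capture Hi-C (CHi-C), in which HindIII-cut, religated chromatin is enriched with RNA baits for fragments that hold promoters. It comprised 2 biological replicates of J1 mESCs (strain 129S4/SvJae, expanded on irradiated primary embryonic fibroblasts in 15% FBS and passaged to remove the feeders), 3 biological replicates of GM12878, an Epstein-Barr virus-transformed human B-lymphoblastoid cell line, and 1 unenriched Hi-C library of the same mESCs. No group was treated or genetically changed. Replicates of a cell type were called together, so each call has 1 read count and 1 score, no spread between replicates can be computed and no comparison below carries a p-value.

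Pou5f1 (Oct4), Sox2 and Nanog form the core of the transcription factor circuit that keeps embryonic stem cells self-renewing, and they bind many of their own regulatory regions. Pou5f1 binds the octamer and pairs with Sox2, an HMG-box protein, on a composite Sox-Oct element. Nanog is a homeodomain protein, Klf2, Klf4 and Klf5 are zinc-finger factors that bind GC-rich CACCC-type elements, Esrrb is an orphan nuclear receptor, and Tfcp2l1 is a CP2-family factor. Zfp42 (Rex1) is a zinc-finger protein used as a marker of the naive state, and Prdm14 is a PR-domain protein of naive pluripotency and germ cells.

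Sequences from the mm9 reference, which is not the 129S4/SvJae genome itself, show the promoter and some of the distal fragments that the contacts below join. The first is the 250 bases before the Nanog-001 start (chr6:122657336-122657585, plus strand), printed because the HindIII cut that opens the bait lies 195 bases before the start, so that the first 55 bases belong to the neighbouring fragment. Capitals mark matches to the Sox-Oct element (CATTGTNATGCAAA) and the Klf element (GGGNGTGG) on either strand.

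Nanog promoter: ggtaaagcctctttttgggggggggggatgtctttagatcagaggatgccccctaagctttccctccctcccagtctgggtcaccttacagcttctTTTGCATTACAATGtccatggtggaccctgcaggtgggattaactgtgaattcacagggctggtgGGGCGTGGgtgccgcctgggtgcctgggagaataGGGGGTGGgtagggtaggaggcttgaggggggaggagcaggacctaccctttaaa

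The Sox-Oct match lay 154 to 141 bases before the start, and 2 Klf matches began 89 and 55 bases before it. The letters of the Sox-Oct element were set with this promoter in mind: with a final T added (CATTGTNATGCAAAT), 0 of 22238 protein-coding promoters of that length held it, Nanog included, and with the shorter form Nanog was the 1 promoter (0.00450%) that did. That match is therefore a description of this sequence and carries no weight as a search result. Zfp42 was the 1 member with an octamer (ATGCAAAT) in its 250 bases, against 1.63% of promoters. Klf matches stood in the promoters of Pou5f1, Nanog, Tfcp2l1 and Zfp42, against 17.2% of promoters, and no member promoter held the Esrrb element (TCAAGGTCA), against 0.301%.

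The next 4 stretches are 200 bases of unbaited other ends, centred on the first octamer or, where there was none, the first Esrrb element of the fragment, with octamer, Esrrb and Klf matches in capitals. They lie at chr6:122711927-122712126 (56.7 kb downstream of the Nanog bait, in an intron of Slc2a3), chr3:34983151-34983350 (434 kb downstream of Sox2, intergenic), chr12:87705009-87705208 (3.95 kb downstream of the Esrrb bait, in its own intron) and chr1:120972215-120972414 (452 kb downstream of Tfcp2l1, intergenic), all plus strand. The stretches are examples from fragments that held a match. The highest-scoring fragments of Nanog (7.20 kb), Sox2 (455 kb) and Esrrb (232 kb upstream) held neither an octamer nor an Esrrb element, while that of Tfcp2l1 is the one shown.

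Nanog distal fragment: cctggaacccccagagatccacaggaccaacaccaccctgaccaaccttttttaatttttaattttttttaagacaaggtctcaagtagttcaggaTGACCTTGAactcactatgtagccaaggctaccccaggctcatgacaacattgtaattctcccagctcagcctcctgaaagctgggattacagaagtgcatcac

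Sox2 distal fragment: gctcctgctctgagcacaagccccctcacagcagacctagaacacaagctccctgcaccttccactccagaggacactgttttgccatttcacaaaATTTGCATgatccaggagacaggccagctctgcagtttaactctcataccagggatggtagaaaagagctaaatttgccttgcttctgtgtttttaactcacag

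Esrrb intronic fragment: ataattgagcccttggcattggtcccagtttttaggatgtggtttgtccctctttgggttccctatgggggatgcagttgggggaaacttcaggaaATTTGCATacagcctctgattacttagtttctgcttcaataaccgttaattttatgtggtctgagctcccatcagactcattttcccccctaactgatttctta

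Tfcp2l1 distal fragment: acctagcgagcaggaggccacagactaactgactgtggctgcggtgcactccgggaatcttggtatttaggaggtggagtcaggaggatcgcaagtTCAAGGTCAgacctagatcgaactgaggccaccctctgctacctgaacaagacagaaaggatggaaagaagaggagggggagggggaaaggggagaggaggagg

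All 78 calls were in cis, on the chromosome of the gene. A count of 0 trans calls allows a share of up to 3.85%, and 0.569% of all mESC calls were trans. No factor promoter was called in contact with another. Only Prdm14 with Tfcp2l1 (chromosome 1) and Klf2 with Zfp42 (chromosome 8) share a chromosome. Nearly any such call would thus have been in trans, so its absence carries little weight. The median distance between fragment midpoints was 86.2 kb (binomial order-statistic 95% interval 53.9 to 195 kb), against 139 kb over all cis calls. Klf2 and Nanog supplied 44 of the 78 calls (56.4%), and the median was 195 kb without Klf2 and 132 kb without Nanog. Reads per call had a median of 10 and CHiCAGO scores one of 6.22, against 13 and 6.62 over all calls. The CHiCAGO score is a weighted, log-transformed p-value, and calls are listed from a score of 5.

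**Figure D1:**
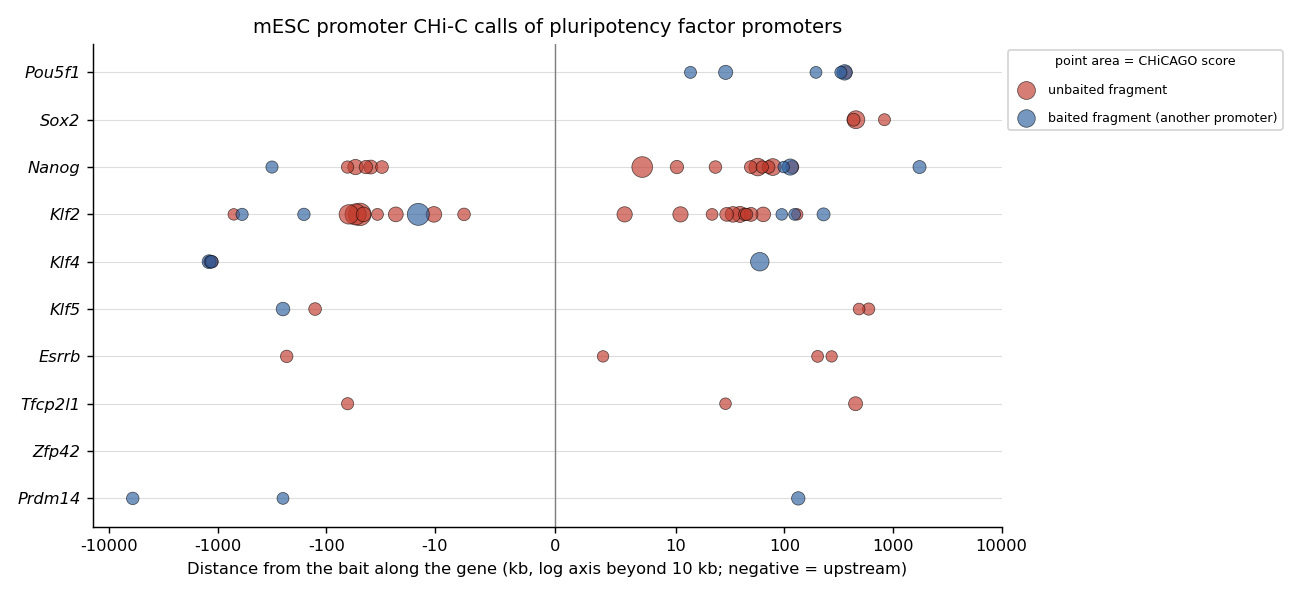
Each point is 1 of the 73 contacted fragments, placed by its distance from the factor's bait along the direction of transcription (kb, logarithmic beyond 10 kb), with area in proportion to the CHiCAGO score; red fragments were unbaited and blue ones held another baited promoter. Nanog and Klf2 had contacts on both sides of the bait, all Pou5f1 and Sox2 contacts were downstream, and Zfp42 had none.

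Of the 66 calls with a factor promoter as the bait, 15 ended on another baited promoter, or 22.7% (Wilson 95% interval 14.3 to 34.2%), against 36.3% of all calls. The remaining 51 ended on unbaited fragments. A score of at least 10 was reached by 10 of the 78 calls (12.8%, 7.12 to 22.0%), against 16.9% of all calls: 4 each of Klf2 and Nanog and 1 each of Sox2 and Klf4. These intervals cover counting error only, and calls of 1 bait to adjoining fragments are not independent.

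Nanog had 18 calls, all with its promoter as the bait (chr6:122657391-122659191), a number at percentile 92.5 of the 16265 listed baits. The highest score, 16.48 on 42 reads, belonged to a fragment 7.20 kb downstream that overlaps the end of the Nanog gene itself. Next came 11.96 on 12 reads at 56.7 kb, in the Slc2a3 intron whose sequence is given above, and 10.83 on 10 reads at 78.0 kb, in another Slc2a3 intron. Slc2a3 encodes a glucose transporter. The bait also contacted the promoter fragments of Slc2a3 (98.3 kb, score 5.07) and of Foxj2, a forkhead factor gene (113 kb, 10.03). Upstream, 5 unbaited fragments between 30.7 and 63.8 kb were called on 7 to 10 reads, with scores from 5.86 to 9.04. The longest contact reached Clstn3, 1756 kb away, on 4 reads.

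Every one of the 18 Nanog contacts had fewer reads than the median of mESC calls at a like distance (within 10%). The fragment at 7.20 kb, for instance, had 42 reads against a median of 64.5, and the one at 56.7 kb had 12 against 18. No contact of Sox2, Klf5, Tfcp2l1 or Prdm14 was above the like-distance median either, with 3, 4, 3 and 3 contacts. All 4 contacts of Esrrb were above it, as were 11 of 26 of Klf2 and 2 of 6 each of Pou5f1 and Klf4. Over all factors 19 of 73 contacts were above it (26.0%, 17.3 to 37.1%). The reads of a call depend on how well its bait was captured, and the part of capture in these levels was not tested.

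Klf2 had 26 calls, 22 as the bait (chr8:74841564-74845938) and 4 from the baits of Gm10282, Eps15l1, Calr3 and Med26. Its strongest contacts as the bait formed a block upstream. The fragments at 49.2, 53.8 and 62.1 kb scored 19.41, 17.1 and 14.43 on 34, 30 and 25 reads, where like-distance medians were 19, 18 and 17. A score of 18.56 on 26 reads came from the Gm10282 bait 14.2 kb upstream. Those reads were below the like-distance median of 39.5, and the pair was not called from the Klf2 bait. Downstream, 6 adjoining fragments covering 25.5 kb were called inside Eps15l1, a gene of endocytosis, with scores from 5.75 to 9.86. In all, 14 of the 22 fragments contacted by the Klf2 bait adjoined another contacted fragment, against 9 of 18 for Nanog and none for Sox2, Klf4, Klf5, Esrrb, Tfcp2l1 and Prdm14.

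Within 150 kb of the bait, 19 of the 67 fragments around Klf2 were called (28.4%) and 16 of the 72 around Nanog (22.2%). The median over all listed baits was 1.80%, and these values were at percentiles 98.3 and 96.8. The 150-kb window was chosen after the Klf2 and Nanog contacts had been seen. None of 101 fragments was called around Sox2 and, with Klf4 as the bait, none of 112.

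**Figure D2:**
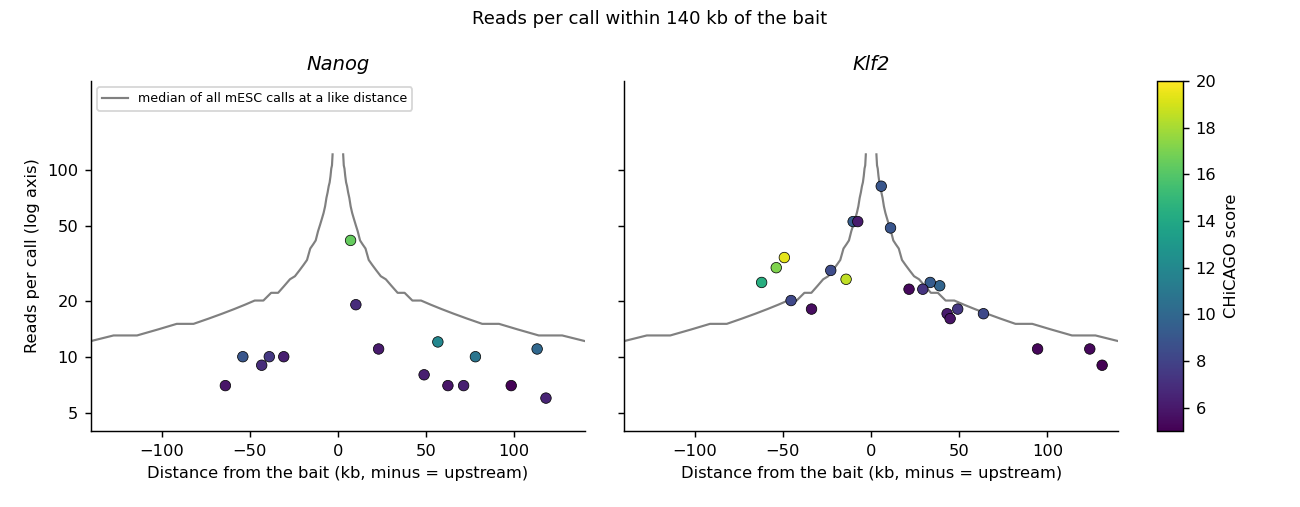
Reads per call (log axis) against distance from the bait in kb, for Nanog and Klf2 contacts within 140 kb; colour gives the CHiCAGO score and the grey line the median reads of all mESC calls at a like distance. All Nanog points lie under the line, and the 3 Klf2 fragments from 49.2 to 62.1 kb upstream lie above it at 25 to 34 reads.

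Sox2 had 3 calls, all to unbaited intergenic fragments downstream. They lay at 434 kb (5 reads, score 6.36), 455 kb (8 reads, 12.28) and 834 kb (4 reads, 5.56). No contact was called nearer than 434 kb, a distance at least as long as which was seen for the nearest cis call of 895 of the 16265 baits, whose median was 34.8 kb. Read counts at these distances were low, with like-distance medians of 8, 8 and 7, and no detection limit was computed.

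Pou5f1 had 10 calls between 6 pairs of fragments, all downstream of the bait (chr17:35641097-35643149) in a gene-dense region of the major histocompatibility complex. The partners were mostly promoters. Psors1c2 (28.7 kb, 29 reads) scored 7.71 from the Pou5f1 bait and 5.92 from its own. Nrm, which encodes a nuclear envelope protein (358 kb, 11 reads), scored 9.14 and 5.32. U6.372 (195 kb) and the beta-tubulin gene Tubb5 (331 kb) were also called from both ends, with scores from 5.2 to 5.64, while Tcf19 (13.6 kb, 32 reads, 5.54) was called from its own bait only. The 1 unbaited partner lay next to the Nrm fragment at 366 kb (6 reads, 6.41). The 2 scores of a pair rest on the same reads, so they are not separate measurements.

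The Klf4 promoter was the other end of a call from the SNORA17.249 bait, 59.2 kb downstream, with 20 reads and a score of 13.17. Its other 6 calls lay 1121 to 1205 kb upstream, on 6 to 8 reads with scores from 5.17 to 7.41, and ended near SNORA17.260 and the actin-like gene Actl7b. SNORA17.260 was called from both ends (6.05 and 6.38). Klf5 contacted the promoter of Mzt1, a gene of the microtubule-nucleating complex (251 kb upstream, 10 reads, 7.12), an intron of Pibf1 at 127 kb upstream (9 reads, 6.2), and downstream fragments at 487 and 597 kb, the farther in an intron of its family member Klf12 (5 reads each, 5.29 and 5.76).

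Esrrb had the call with the most reads, 147, to its own intron 3.95 kb from the bait, with a score of 5.07. The median at that distance was 101 reads. Its other calls, at 202 kb and 272 kb downstream and 232 kb upstream, had 12, 10 and 12 reads and scores from 5.0 to 5.98. Tfcp2l1 was called in contact with its own gene body at 28.6 kb (18 reads, 5.2), with Clasp1 at 63.7 kb upstream (13 reads, 5.73) and with the fragment at 452 kb (7 reads, 7.49). Prdm14 differed from these in that all 3 partners were promoters: Slco5a1 at 134 kb (6 reads, 6.91), the nuclear receptor coactivator gene Ncoa2 at 251 kb (4 reads, 5.42) and Tcfap2b, an AP-2 factor gene, at 6086 kb (3 reads, 5.99).

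Zfp42 was named in no call. Its start lies in the fragment chr8:44390673-44395599, which was in no call, and no fragment within 100 kb was listed. The nearest was 106 kb away. Whether its fragment was among the baits was not analysed here, so the absence gives no measure of its contacts.

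Of the 66 other ends of factor baits, 40 were also contacted by another bait (60.6%, 48.5 to 71.5%), against 73.6% of all mESC calls counted in the same way. All 5 other ends of the Pou5f1 bait were also contacted by another bait, and Mdc1, a DNA damage response gene, shared all 5, which were 31.2% of its own 16. For Nanog 14 of 18 other ends were shared, most with Slc2a3 (6, or 33.3% of Nanog's and 66.7% of the 9 of Slc2a3) and Foxj2 (5 of its 10). For Klf2, Slc35e1 shared 9 of 22 (40.9%, and 24.3% of its 37). In all, 13 of the 22 Klf2 other ends were shared. Prdm14 shared all 3 of its other ends, Esrrb 2 of 4, Klf4 and Klf5 1 of 4 each, Sox2 1 of 3 and Tfcp2l1 none of 3. The Nanog fragment at 56.7 kb was also contacted by 3 other baits, those of Clstn3, Eno2 and Dppa3. Dppa3 (Stella) is an oocyte and naive pluripotency gene of the same chromosome region.

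The Hi-C list gives pairs of 25-kb bins up to 1 Mb apart with their observed and expected read pairs. Of 70 CHi-C calls under 1 Mb, 9 lay within a bin pair at an FDR under 0.05 (12.9%, 6.91 to 22.7%), against 11.6% of all calls. Klf2 gave 5 of its 26, and without Klf2 the share was 4 of 44 (9.09%). Bins holding a factor promoter were in 32 listed pairs, of which 3 (9.38%) passed this FDR, against 9.79% of all listed pairs. These were the Nanog bin with one 45.9 kb upstream (51 read pairs against 15.1 expected, FDR listed as 0), the Klf2 bin with one 42.9 kb downstream (64 against 29.8, FDR 0.00206), and the Sox2 bin with one 838 kb downstream (23 against 2.78, FDR listed as 0).

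Each of the 3 pairs held CHi-C calls of the same gene, 3 for Nanog, 5 for Klf2 and 1 for Sox2. The block of highest scores from the Klf2 bait fell in a pair that missed the threshold, with 36 read pairs against 14.7 and an FDR of 0.0521. The Sox2 bin was also listed with one 116 kb downstream, at 12 against 5.25 and an FDR of 1, where CHi-C listed no call. None of the 10 calls that scored at least 10 lay in a passing pair, which would allow a share of up to 30.0% if they were independent. The calls of the Klf2 block share 1 bin pair, so the 10 are not independent and that limit is too low. Over all mESC cis calls under 1 Mb, at any listed score, the share was 11.6%. The share over all mESC calls of at least 10 was not computed, so the count cannot be judged against it. At 1-Mb resolution 7 of the 8 factor calls over 1 Mb lay within a bin pair at an FDR under 0.05 (87.5%, 52.9 to 97.8%), against 59.4% of all cis calls that long. The interval treats the 8 calls as independent, which they are not, so it is too narrow. The 6 distant Klf4 calls, which share 1 bin pair, lay in a pair with 3960 read pairs against 2551 expected, and the Clstn3 call of Nanog in one with 1174 against 556. The call of Prdm14 to Tcfap2b at 6086 kb lay in none.

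**Figure D3:**
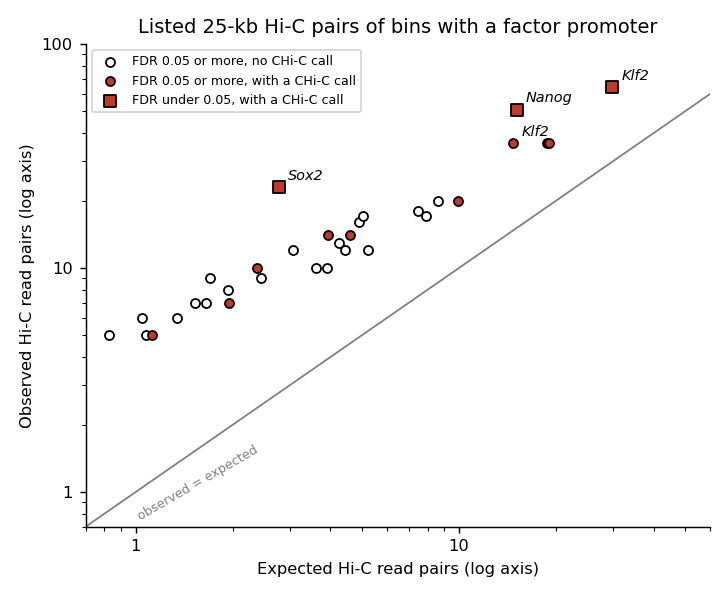
Observed against expected Hi-C read pairs (both log axes) for the 32 listed pairs of 25-kb bins that hold a factor promoter; squares mark an FDR under 0.05 and filled symbols pairs with a CHi-C call. All points lie above the line of equality because only enriched pairs are listed, and the Nanog, Klf2 and Sox2 pairs at 51, 64 and 23 read pairs are the squares.

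In GM12878, B-lymphoid cells of another species with their own capture design, the same symbols were in 21 of 92929 calls and 6 of the 10 genes had one. Of the 9 factors listed in mESCs 6 were listed in GM12878 (66.7%), against 79.9% of the 10231 mESC-listed coding symbols found in the human annotation. NANOG, KLF5, ESRRB and ZFP42 had none. POU5F1 was named on the fragment chr6:31147993-31151524 (hg19). Which annotated starts the human fragments hold was not examined, so they may not match the mouse baits. POU5F1 had 8 calls between 24.0 and 612 kb and the highest score was 11.13, to an unbaited fragment 42.8 kb away. TCF19 was its 1 partner gene shared with mESCs, and no other factor shared a named partner.

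KLF2, which B cells also express, had 6 calls, all to unbaited fragments from 25.5 to 82.9 kb away on both sides, with scores from 5.3 to 8.1 on 26 to 51 reads. SOX2 had 1 call, 423 kb away on 7 reads with a score of 5.07, and again none nearer. PRDM14 had 4 calls between 117 and 538 kb, KLF4 was called from RNU6-1064P at 310 kb (8.18), and TFCP2L1 contacted GLI2, a Hedgehog pathway factor gene, at 545 kb (5.51). Species, capture design, number of replicates and cell type all differ between the lists, and their parts cannot be told apart.

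**Figure D4:**
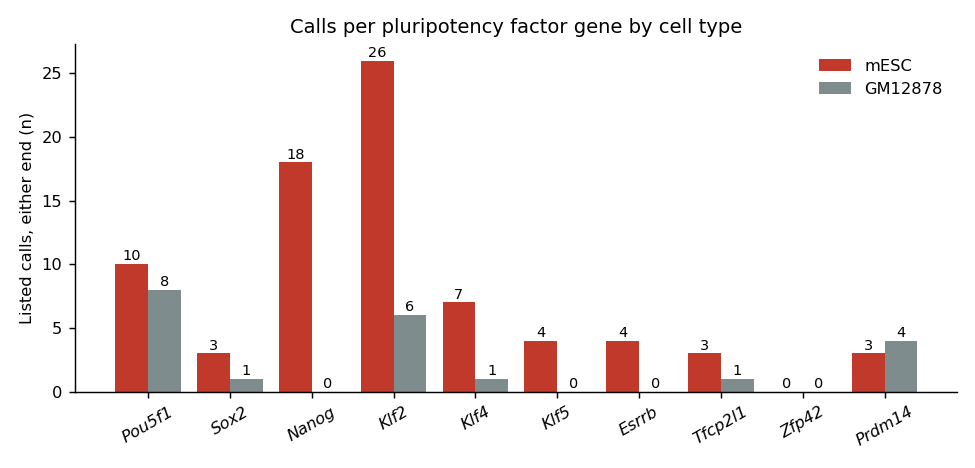
Number of listed calls per factor gene at either end, in mESC (red) and GM12878 (grey), with the count above each bar. Nanog (18 and 0) and Klf2 (26 and 6) differ most, and Prdm14 had 3 and 4.

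The 51 unbaited fragments contacted by factor baits were searched for the factors' own elements. The Esrrb element stood in 13 (25.5%, 15.5 to 38.9%), against a mean of 14.8% for listed unbaited other ends of like length (within 10%) and 10.1% for all HindIII fragments of like length. The octamer was also in 13 (25.5%), against 22.4% and 33.2%, and the Klf element in 40 (78.4%, 65.4 to 87.5%), against 73.0% and 62.4%. No fragment held the Sox-Oct element in either form. Its shorter form stood in a mean of 0.0194% of listed unbaited other ends and 0.0337% of all HindIII fragments of like length. At such shares 51 fragments would seldom hold a match, so its absence says nothing about the contacts of the factors. Repeats were not masked, and the comparison with listed other ends was added after the first shares were known. A match describes letters and not a bound site.

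**Figure D5:**
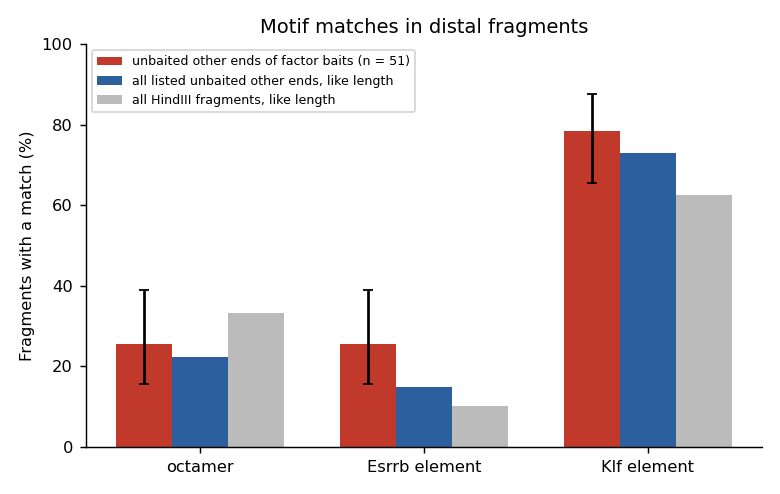
Share of fragments (%) with at least 1 match to the octamer, the Esrrb element or the Klf element, in the 51 unbaited other ends of factor baits (red, bars with Wilson 95% intervals for counting error), listed unbaited other ends of like length (blue) and all HindIII fragments of like length (grey). The Esrrb interval is 15.5 to 38.9% and its blue value 14.8%, and the octamer and Klf intervals hold the blue values. Adjoining fragments of 1 bait are not independent, so the place of an interval against a blue value is not a test. Of the 13 fragments with an Esrrb match, 5 were among the 14 of Nanog.

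Of 32 other genes of the pluripotency network and its signals, 28 had a call (87.5%), against 63.5% of all coding symbols, with a median of 5 calls against 4 over the 17014 listed symbols and 4 over the factors with a call. The T-box gene Tbx3 had 56 calls, the Wnt effector Tcf7l1 53, the AP-2 gene Tfap2c (listed as Tcfap2c) 29, the corepressor gene Trim28 28 and the zinc-finger gene Zscan10 22. The lowest counts were in 4 genes with 1 call each (Lin28a, Nr5a2, Tcl1 and Zfp281, named after their values were seen) and 4 with none. No call joined any of the 32 to a factor promoter. How often other sets of genes are so joined was not computed, so that absence is not a result about the network.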

How the data were processed

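The authors mapped and filtered reads with HiCUP (Bowtie 1.1.0 per the submitters' processing notes; mm9 and hg19) and called contacts with CHiCAGO on all replicates of a cell type together. The deposited lists give, per call, a CHiCAGO score (5 or more) and a read number, which is the rounded weighted mean of the replicates' counts. Total depth per sample is unknown from these lists. For Hi-C the deposited lists from HOMER 4.7 give counts of read pairs per pair of bins, an expected signal, and FDR-adjusted p-values.

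Symbols were split at separators and stripped of transcript suffixes. Distances join fragment midpoints, with direction from the annotated strand. Hi-C support required both midpoints in the bins of 25 kb. Shares carry Wilson 95% intervals and no tests were run, there being 1 set of calls per cell type. HindIII fragments were cut from the mm9 reference, and all 52640 listed mESC fragments matched. Promoters came from the mm9 annotation, 1 transcript a gene. Computation used Python 3.11.15, pandas 2.3.3, numpy 2.4.6, scipy 1.17.1 and matplotlib 3.10.9, checked on simulated data.

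The members and lists were chosen with earlier results of these data known. The named genes were the members, with their highest-scoring and longest calls, the baits sharing most other ends, and the 5 other network genes with most calls. Motif letters were written after the files had been read, and the Sox-Oct letters were shortened by 1 base so as to include the Nanog promoter element; both forms are given. Alternatives were a score of at least 10, pairs counted once, the browser list, edge distances, bait end only, other Hi-C criteria and, added after seeing the data, symbols as given only and leaving out Klf2 or Nanog.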

Additional observations from a re-analysis of the deposited data

How the results depend on the processing

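Of 33 alternatives over 7 results, 26 stayed within 1.5 times the reported count or within the counting interval of the reported share or median, and 7 did not. The 26 include the median distance without Klf2, 195 kb against 86.2 kb, which equals the upper limit of the interval. Without Klf2 the median was thus above the 139 kb of all cis calls, and with Klf2 below it. A score of at least 10 left 10 mESC calls of the factors, a baited share of 12.5%, a Hi-C share of 0%, 1 factor and 1 call in GM12878, and 15 of the other network genes. Counting every listed Hi-C pair, whatever its FDR, raised the Hi-C share to 35.7%. The counts fall by construction at a stricter score, and the Hi-C share cannot fall when more pairs are admitted. The baited and Hi-C shares at the stricter score are not fixed in that way, and rest on at most 10 calls. Counting each pair once gave 73 calls, as did the browser list, and the bait end alone gave 66. Limits are the read numbers, which fall to 3 to 8 at the longest distances, and the lack of values per replicate. No leave-one-out value could be computed. No paired analysis was possible because the calls were made on all replicates of a cell type together and the lists carry no replicate columns.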
